A study of Homo sapiens with 6 samples.

Results

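The genes described here belong to the JAK and STAT5 pathway, by which the erythropoietin receptor and related cytokine receptors signal from the cell surface to the nucleus, and to its feedback. They are the receptors EPOR and IL4R, the kinases JAK1 and JAK2, the transcription factors STAT5A and STAT5B, and the feedback inhibitors CISH, SOCS1, SOCS2 and SOCS3. The 10 genes were chosen by symbol for their place in or beside this pathway, with earlier results of these data known, out of the 31142 genes listed for each library. All 10 were listed, each under 1 identifier.

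The erythropoietin receptor has no enzyme activity of its own and keeps JAK2 bound to its cytoplasmic tail. When erythropoietin brings the receptor chains together, JAK2 phosphorylates the receptor and STAT5A and STAT5B, which then pair, enter the nucleus and switch on genes for the survival and growth of red cell precursors. CISH and the SOCS genes are among the genes that STAT proteins switch on, and their proteins bind phosphorylated receptors or JAK kinases and damp the signal.

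RNA was sequenced from 6 samples whose labels give the cell line SKM-1, an acute myeloid leukemia line that arose from a myelodysplastic syndrome. In 3 libraries (S34F) the genotype is S34F mutant U2AF1, and in the other 3 (WT) the titles give wild-type U2AF1. U2AF1 is a splicing factor that recognizes the end of introns, and the study asked what its S34F mutation changes in gene expression. Both forms were FLAG-tagged and delivered by lentivirus into cells that keep their own U2AF1, and RNA was taken at 96 h. The sample name prefix of the WT libraries is also used for negative controls and the protocol speaks of a vehicle control, so what the WT cells received is not fully settled by the labels. The study speaks of independent RNA samples in triplicate but does not say whether these were separate cultures, so p-values measure the spread between these samples, which may be technical.

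Levels were given as FPKM, fragments per kilobase of transcript scaled for the size of the library, so they can be set side by side between genes. The libraries held approximately 20.5 to 26.1 M fragments, read from the value of 1 fragment in single-exon genes with a single transcript. U2AF1 stood at 9.18 to 9.48 FPKM in S34F and 7.65 to 8.70 FPKM in WT, which says nothing of the mutation, since a gene level does not tell the alleles apart and a near-identical gene, U2AF1L5, shares its reads. Replicate 3 of each group stood apart from the rest. On the first principal component, which held 47.9% of the variance over the genes tested, S34F replicate 3 scored 35.1 and WT replicate 3 scored 12.9, against -7.71 to -16.3 for the other 4, so values without both libraries are given where they matter.

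The cell type on the label was checked against marker genes. All 12 erythroid markers passed the filter of a mean of at least 1 FPKM, with GATA1, the erythroid master regulator, at 141.8 to 205.8 FPKM and the embryonic globin HBE1 at 5058 to 5834 FPKM. Of 12 monocytic markers, 4 passed (LYZ, ITGAM, CD33 and CD68), while MPO, FCN1, S100A8, CSF1R and VCAN stayed under 0.1 FPKM in each library. The measured profile is thus rich in erythroid transcripts and poor in the monocytic ones tested, and the libraries are called here by their labels only. The study also used K562, a leukemia line with erythroid features, and which line these libraries came from was not tested. The erythroid markers summed to 11467 to 13098 FPKM in S34F and 11210 to 12046 FPKM in WT, and none of the 12 had an unadjusted p under 0.05. The monocytic markers summed to 45.8 to 75.7 FPKM in S34F and 67.3 to 88.7 FPKM in WT. ITGAM and CD33 were lower in S34F at limma p = 0.0148 and p = 0.0469 (adjusted p = 0.9999 each), each at the smallest exact permutation p of 0.1. At an unadjusted p under 0.05, 1.57% of all genes tested were lower in S34F. LYZ and CD68 overlapped between the groups, and LYZ was highest in S34F replicate 3, at 23.2 FPKM. Of 6 lymphoid markers 4 were listed, and they summed to 8.91 to 15.2 FPKM in S34F and 16.7 to 17.04 FPKM in WT, nearly all of it CD3D. The part of these differences in the results below was not tested, and in such bulk samples fewer cells of a type and less RNA per cell cannot be told apart.

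The members spanned a wide range of levels. STAT5A led with a mean of 26.8 FPKM over the 6 libraries, followed by STAT5B at 21.5, CISH at 15.2, EPOR at 7.13, JAK1 at 6.86, SOCS2 at 3.55, SOCS1 at 3.12, JAK2 at 1.57, SOCS3 at 0.938 and IL4R at 0.923 FPKM. STAT5A stood above 95.01% of all listed genes and IL4R above 64.1%. The steps from CISH to EPOR, from JAK1 to SOCS2 and from SOCS1 to JAK2 were wider than the spread over all 6 libraries, since the lowest value of the higher gene lay above the highest value of the lower one. STAT5B exceeded CISH, and JAK2 exceeded SOCS3, in 6 of 6 libraries, although their ranges met. Within the remaining steps the order was not settled, as STAT5A exceeded STAT5B in 5 of 6 libraries, EPOR exceeded JAK1 and SOCS2 exceeded SOCS1 in 4 of 6, and SOCS3 exceeded IL4R in 3 of 6.

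None of the 8 members tested changed between S34F and WT at the study's limits, a fold above 1.5 with an unadjusted p under 0.05. Only these limits are the study's, and the authors' own fold changes and p-values were not used. The test was limma on log2(FPKM + 1) over the 10942 genes with a mean of at least 1 FPKM, and 8 members entered it, all but IL4R and SOCS3. Of all genes tested, 64 met those limits, which is 0.585%, so that 0 of 8 lies near the background. At a Benjamini-Hochberg adjusted p under 0.05, limma called 0 of the 10942 genes (0%), with 262 at an unadjusted p under 0.05. These were 90 genes higher in S34F (0.823%) and 172 lower (1.57%), none of them a member. The log2 fold change was positive for 3 members and negative for 5, with a median of -0.08, against 0.01 over all genes tested.

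**Figure D1:**
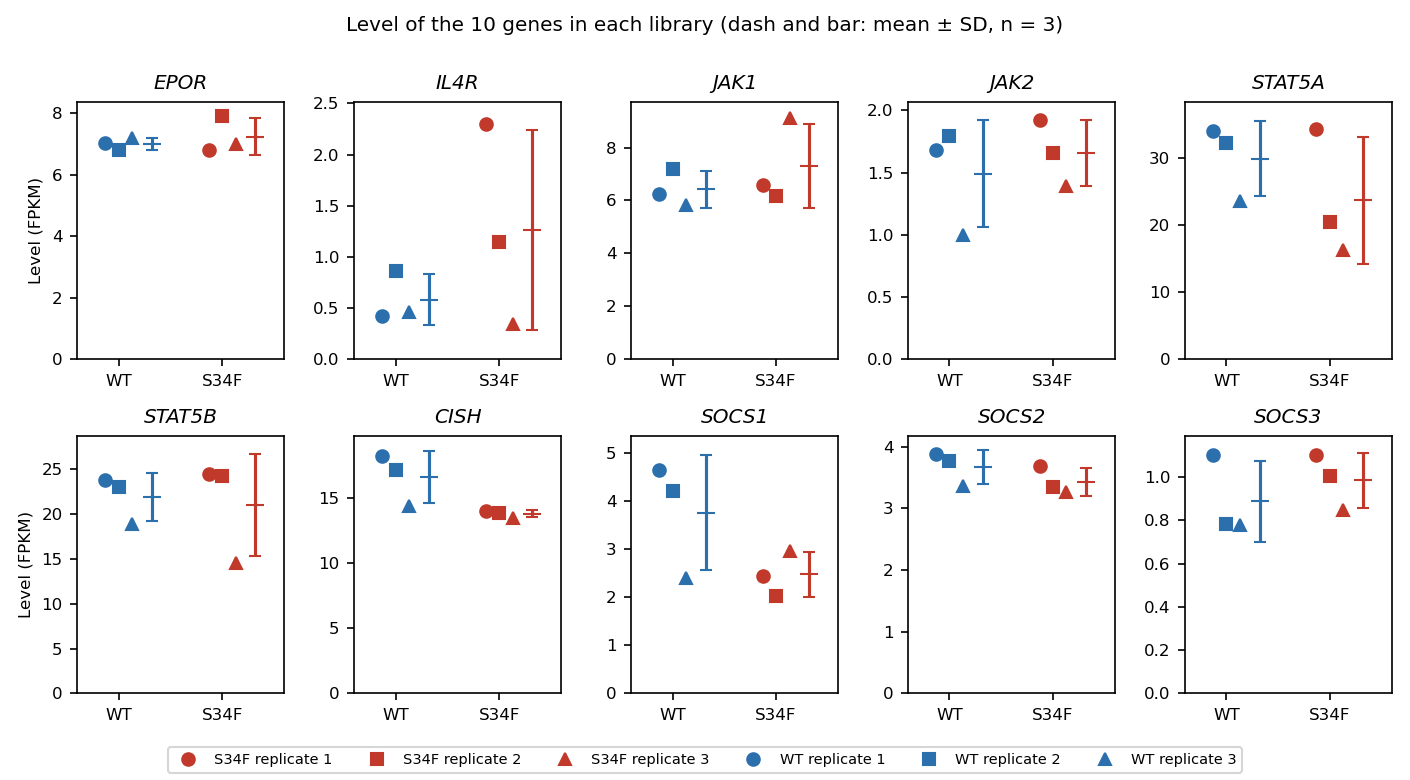
Level of each of the 10 genes (FPKM, vertical axis starting at 0) in the 3 WT (blue) and 3 S34F (red) libraries, with the marker shape giving the replicate number and the dash and bar giving the mean ± SD (n = 3). The groups overlap for each gene except CISH, whose S34F libraries lie at 13.5 to 14.1 FPKM, under the lowest WT value of 14.5 FPKM.

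Among the receptors, EPOR, the receptor for erythropoietin on red cell precursors, was the steadiest gene of the set. Its gene (ENSG00000187266) lies at chr19:11377205-11384342 on the minus strand of GRCh38. EPOR measured 6.81, 7.92 and 7.01 FPKM in S34F replicates 1, 2 and 3 and 7.03, 6.81 and 7.20 FPKM in WT replicates 1, 2 and 3. S34F replicate 2 was highest, and the other 5 libraries of both groups were interleaved. The means were 7.25 ± 0.591 and 7.01 ± 0.195 FPKM (SD, n = 3 each), with a log2 fold change of 0.04 (SE 0.10, limma p = 0.713, adjusted p = 1.00, exact permutation p = 0.8). The 95% interval ran from 0.868-fold to 1.22-fold, and without S34F replicate 2 the sign turned, at -0.019.

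IL4R, the chain shared by the receptors for interleukin 4 and interleukin 13, signals through JAK1 and mainly through STAT6. The gene (ENSG00000077238) lies at chr16:27313668-27364778 on the plus strand. IL4R measured 2.30, 1.14 and 0.347 FPKM in S34F and 0.425, 0.866 and 0.458 FPKM in WT, replicates 1 to 3 in order. It had both its highest and its lowest value within S34F, so the groups overlapped fully. The means were 1.26 ± 0.981 FPKM in S34F and 0.583 ± 0.246 FPKM in WT (SD, n = 3 each). The S34F mean was 2.17 times the WT mean, yet the difference of 0.43 in mean log2(FPKM + 1) gave p = 0.4 in a two-sided exact permutation test, which cannot go below 0.1 with 3 libraries against 3. Without S34F replicate 1 the difference was 0.11 and without S34F replicate 3 it was 0.76. The values rest on some 8.61 to 47.1 fragments per kilobase of transcript, which include the lowest value of any member. The gene lay below the filter with a mean of 0.923 FPKM, and in a limma fit without the filter its 95% interval ran from -0.40 to 1.26 on the log2 scale.

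JAK1 pairs with many cytokine receptors of more than 1 kind of chain, the interferon and interleukin 4 receptors among them. Its gene (ENSG00000162434) lies at chr1:64833229-64966504 on the minus strand. JAK1 measured 6.60, 6.16 and 9.10 FPKM in S34F and 6.26, 7.19 and 5.81 FPKM in WT. S34F replicate 3 was the highest library and the remaining values of both groups were interleaved. The means were 7.29 ± 1.59 and 6.42 ± 0.703 FPKM (SD, n = 3 each), with a log2 fold change of 0.15 (SE 0.16, limma p = 0.389, exact permutation p = 0.6). Without both replicates numbered 3 it was -0.064.

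JAK2, the kinase that the erythropoietin receptor depends on, was the lower of the pair. Its gene (ENSG00000096968) lies at chr9:4984390-5128183 on the plus strand. JAK2 measured 1.93, 1.65 and 1.39 FPKM in S34F and 1.68, 1.80 and 0.997 FPKM in WT. Replicate 3 was the lowest library within each group, and the groups overlapped. On average JAK2 was 1.66 ± 0.266 and 1.49 ± 0.431 FPKM (SD, n = 3 each), a log2 fold change of 0.10 (SE 0.16, limma p = 0.537, exact permutation p = 0.7), and without WT replicate 3 it was -0.047. The 95% intervals of the kinases ran from 0.851-fold to 1.44-fold for JAK1 and from 0.825-fold to 1.40-fold for JAK2. These bounds hold at a pseudocount of 1, and JAK2 had a log2 fold change of 0.17 (SE 0.26) with 0.1 and 0.19 (SE 0.27) with 0.01 in its place.

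The ratio of JAK2 to JAK1 was 0.292, 0.268 and 0.153 in S34F and 0.268, 0.2497 and 0.171 in WT, and it was lowest in replicate 3 of each group. The log2 ratios differed by 0.02 between the groups (exact permutation p = 0.9). Within the JAK family, which also holds TYK2 and JAK3, TYK2 took the largest share of the summed FPKM, 51.2% ± 3.38 in S34F and 57.2% ± 3.63 in WT (SD, n = 3 each). JAK1 held 39.4% ± 5.15 and 34.6% ± 2.20, and JAK2 held 9.13% ± 1.95 and 7.98% ± 1.94. JAK3, the partner of the common gamma chain in lymphoid cells, stayed at or under 0.330% in each library. For these 4 shares the exact permutation p lay between 0.2 and 0.5.

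STAT5A and STAT5B are near-identical transcription factors whose genes lie next to each other on chromosome 17. STAT5A (ENSG00000126561) lies at chr17:42287547-42311943 on the plus strand and STAT5B (ENSG00000173757) at chr17:42199168-42276707 on the minus strand, with 10839 bases between them. Their coding sequences, of 2382 bases (ENST00000345506) and 2361 bases (ENST00000293328), share an identical run of 429 bases, from coding base 564 to 992 in both, of which the first 50 bases (to 613) are shown because reads from such a run could belong to either gene.

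STAT5A and STAT5B, shared: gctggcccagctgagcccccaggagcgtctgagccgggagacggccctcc

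Windows of 100 bases found unaltered in the other transcript made up 8.83% of the STAT5A transcript (4301 bases) and 7.41% of the STAT5B transcript (5103 bases), and how the authors' counting divided reads there is not given in the sources used here. Levels of the pair that rest on those windows are uncertain, and the rest of each transcript told them apart at that length.

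STAT5A was the most variable of the abundant members. It measured 34.4, 20.5 and 16.2 FPKM in S34F and 33.99, 32.3 and 23.6 FPKM in WT. S34F replicate 1 matched the highest WT library, while S34F replicates 2 and 3 lay under all 3 WT libraries. The means were 23.7 ± 9.52 and 29.9 ± 5.60 FPKM (SD, n = 3 each), and the log2 fold change was -0.38 (SE 0.28, limma p = 0.222, adjusted p = 1.00, exact permutation p = 0.4), with a 95% interval from 0.487-fold to 1.22-fold. The value turned on single libraries. Without S34F replicate 1 the log2 fold change was -0.67 (limma adjusted p = 0.999), which met the fold and unadjusted p limits together with 0.74% of all genes, and without S34F replicate 3 it was -0.15.

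STAT5B measured 24.4, 24.2 and 14.5 FPKM in S34F and 23.8, 23.0 and 18.9 FPKM in WT. Replicates 1 and 2 of both groups were close together, and replicate 3 was the lowest of each group. The means of 21.1 ± 5.68 and 21.9 ± 2.64 FPKM (SD, n = 3 each) gave a log2 fold change of -0.09 (SE 0.22, limma p = 0.704, exact permutation p = 1), and it was 0.053 without both replicates numbered 3. The ratio of STAT5A to STAT5B was 1.41, 0.844 and 1.12 in S34F and 1.43, 1.40 and 1.25 in WT. Only in S34F replicate 2 was STAT5B the higher of the pair. The log2 ratio was lower in S34F by 0.30 on average, at an exact permutation p of 0.3.

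The pair supplied most of the STAT message in 5 of the 6 libraries. Together they held 54.7% ± 7.56 of the summed FPKM of the 7 STAT genes in S34F and 56.9% ± 3.36 in WT (SD, n = 3 each, exact permutation p = 0.7). STAT3, which transmits interleukin 6 signals, followed at 22.1% ± 2.78 and 20.5% ± 1.45. STAT4, the interleukin 12 factor, was at or near 0 in each library.

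CISH was the most abundant feedback inhibitor and the only member whose groups did not overlap. Its protein binds phosphorylated cytokine receptors and competes with STAT5, and the gene (ENSG00000114737, chr3:50606490-50611831, minus strand) is a textbook STAT5 target. The motif that STAT5 recognizes, TTCNNNGAA, reads the same on both strands, and CISH was the only member whose RefSeq promoter window (250 bases before the transcript start, GRCh38.p14) held it. The bases from 250 to 58 before the start are shown, at chr3:50611832-50612024 on the minus strand, with the motif matches in capitals.

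CISH promoter: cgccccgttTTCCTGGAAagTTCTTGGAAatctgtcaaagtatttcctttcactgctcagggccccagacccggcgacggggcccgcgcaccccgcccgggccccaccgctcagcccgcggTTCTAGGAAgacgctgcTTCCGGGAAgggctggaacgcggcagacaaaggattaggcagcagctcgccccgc

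The 4 matches begin 241, 230, 129 and 112 bases before the start. At least 1 match was found in 6.57% of all 35116 promoter windows, 2 or more in 0.356%, and 4 or more in 5 windows. A gene can have several windows, and by gene 2208 of 27305 held at least 1 match. Of the 10 members, 9 had windows, all but SOCS2. Windows followed RefSeq starts, which can differ from the gene starts given here. Those of SOCS3 (chr17:78359668-78359917 and chr17:78360926-78361175) leave out the bases just before its gene start at 78360077. That stretch was not searched, so a motif there is not excluded. Of 16 other genes listed as STAT5 targets, 13 had windows and 1 of these, BCL6, held the motif, while PIM1 did not. A match is a description of these letters only and no binding was measured here.

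CISH measured 14.1, 13.9 and 13.5 FPKM in S34F and 18.3, 17.2 and 14.5 FPKM in WT. All 3 S34F libraries lay under the lowest WT library, and each was lower than the WT library of its own number. The S34F values were close together and WT replicate 3 lay just above them. The means were 13.8 ± 0.285 and 16.6 ± 1.97 FPKM (SD, n = 3 each). The log2 fold change was -0.25 (SE 0.12, limma p = 0.0730, adjusted p = 1.00, exact permutation p = 0.1, the smallest it can give). Its 95% interval ran from 0.697-fold to 1.02-fold. Groups that did not overlap and were lower in S34F were found for 3.73% of all genes tested, and higher in S34F for 3.66%, so that 1 such gene among 8 was not set apart from the background. Without WT replicate 3 the log2 fold change was -0.34 (limma adjusted p = 1.00), and without both replicates numbered 3 it was -0.32 (limma adjusted p = 0.145), both with an unadjusted p under 0.05. Without WT replicate 1 or WT replicate 2 it was -0.18 or -0.22, neither with an unadjusted p under 0.05. In the former 2 fits 1.94% and 8.71% of all genes were lower at a p under 0.05.

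SOCS1, which blocks the kinase activity of the JAKs and is the main brake on interferon gamma signals, had the largest negative log2 fold change among the members tested. Its gene (ENSG00000185338) lies at chr16:11254405-11256200 on the minus strand. SOCS1 measured 2.44, 2.03 and 2.97 FPKM in S34F and 4.66, 4.22 and 2.40 FPKM in WT. WT replicates 1 and 2 lay above all S34F libraries, while WT replicate 3 lay among them. The means were 2.48 ± 0.475 and 3.76 ± 1.20 FPKM (SD, n = 3 each), and the log2 fold change was -0.43 (SE 0.22, limma p = 0.0883, adjusted p = 1.00, exact permutation p = 0.3). Its 95% interval ran from 0.522-fold to 1.06-fold. Without WT replicate 3 the log2 fold change was -0.65 (limma adjusted p = 1.00), a call by fold and p that 0.804% of all genes shared, and without both replicates numbered 3 it was -0.75 (limma adjusted p = 0.119), where 1.67% of all genes were called. Without WT replicate 1 it was -0.29 and not called, so that with 1 library left out the value ran from -0.65 to -0.29.

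SOCS2, known as the brake on growth hormone signals, measured 3.69, 3.35 and 3.26 FPKM in S34F and 3.87, 3.77 and 3.36 FPKM in WT (ENSG00000120833, chr12:93569814-93583487, plus strand). It was lower in S34F in 3 of 3 same-numbered pairs, but the groups overlapped and the differences were small. With means of 3.43 ± 0.225 and 3.67 ± 0.270 FPKM (SD, n = 3 each), it had a log2 fold change of -0.07 (SE 0.10, limma p = 0.494, exact permutation p = 0.2), with a 95% interval from 0.801-fold to 1.13-fold. Leaving out WT replicate 3 gave -0.12, and leaving out WT replicate 1 gave -0.043. Its levels rest on 75.6 to 99.9 fragments per kilobase.

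SOCS3, the brake on interleukin 6 and granulocyte colony-stimulating factor signals that also binds the erythropoietin receptor, was near the lower end of the set (ENSG00000184557, chr17:78356778-78360077, minus strand). It measured 1.10, 1.01 and 0.849 FPKM in S34F and 1.11, 0.784 and 0.779 FPKM in WT, on 19.4 to 28.5 fragments per kilobase. Replicate 1 was the highest library in both groups, and the groups overlapped. SOCS3 lay below the filter, and its mean log2(FPKM + 1) differed by 0.07 (exact permutation p = 0.6). The difference was 0.15 without WT replicate 1, 0.032 without S34F replicate 1 and 0.16 with a pseudocount of 0.01. A limma fit without the filter gave a 95% interval from -0.22 to 0.37 on the log2 scale.

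The inhibitor family as a whole, CISH with SOCS1 to SOCS7, summed to 26.0 ± 0.849 FPKM in S34F and 29.6 ± 3.60 FPKM in WT (SD, n = 3 each, exact permutation p = 0.3). CISH held 53.2% ± 2.51 and 56.2% ± 0.554 of it, with no overlap between the groups (exact permutation p = 0.1). The shares of SOCS4, SOCS5 and SOCS6 did not overlap either (exact permutation p = 0.1 each) and were higher in S34F, so that 4 of the 8 shares of this sum lay apart. Shares of the same sum depend on each other, however. The FPKM of SOCS4, SOCS5 and SOCS6 themselves overlapped between the groups (exact permutation p = 0.6, 0.3 and 0.3). SOCS1 held 9.502% ± 1.52 and 12.5% ± 2.70, and SOCS2 held 13.2% ± 0.970 and 12.4% ± 0.637. SOCS3 held 3.80% ± 0.555 and 2.999% ± 0.445. The sum was at its lowest WT value, 25.5 FPKM, in WT replicate 3, which lay within the S34F range of 25.1 to 26.8 FPKM.

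**Figure D2:**
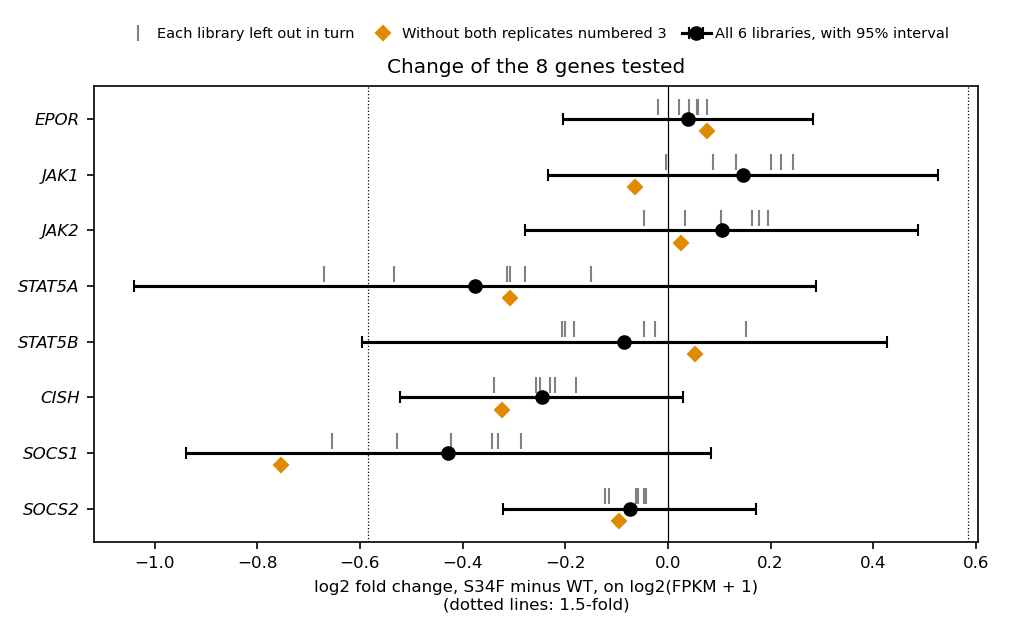
Log2 fold change of S34F over WT on log2(FPKM + 1) (horizontal axis) for the 8 members tested, with black points and bars for all 6 libraries and the 95% interval, grey ticks for each library left out in turn, orange diamonds for the fit without both replicates numbered 3, and dotted lines at 1.5-fold. Each black interval crosses 0, and the diamonds lie at -0.75 for SOCS1 and -0.32 for CISH.

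Across the 6 libraries some members varied together. On log2(FPKM + 1), Pearson's r was 0.94 between STAT5A and SOCS2, 0.90 between SOCS1 and CISH, 0.84 between SOCS2 and CISH and 0.76 between STAT5A and STAT5B, while JAK1 and STAT5B stood at -0.69. These are descriptions over 6 libraries that share replicate 3's distance from the rest. Over the same 6 values, the genes most like each member were NAB2 (r = 0.995) and TTC23 (0.973) for EPOR, CFAP20 (0.998) and CTNNB1 (0.996) for JAK1, ELAVL1 (0.995) and PLK4 (0.994) for JAK2, POLR2J4 (0.986) and VSIG10L (0.980) for STAT5A, and PPP1R9B (0.998) and AC005224 (0.998) for STAT5B. For the inhibitors they were a locus listed as RF00003 (0.993) and KCNAB2 (0.992) for SOCS1, VCX (0.990) and another RF00003 locus (0.985) for SOCS2, and AC012676 (0.992) and AL662844 (0.991) for CISH. Each of these values is the highest or next highest of some 10942 comparisons over 6 points.

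The rest of the pathway was read from 72 genes in 7 lists, 71 of which were listed and 40 tested. None was called by fold and p, against 0.585% of all genes. At an unadjusted p under 0.05, 0 were higher in S34F and 3 were lower, against 0.823% and 1.57% of all genes. The log2 fold change was positive for 17 and negative for 23, with a median of -0.02. The 3 lower genes were PIM1, STAT6 and TFR2. Groups without overlap were found for 6 of the 40 lower in S34F (those 3, TYK2, GAB2 and GRB2) and for 2 higher (PTPN2 and PIM3), against 3.73% and 3.66% of all genes. These lists were chosen with earlier results known and were not tested as sets.

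PIM1, a survival kinase gene that STAT5 switches on, was the most abundant of the 16 STAT5 target genes listed. It measured 98.7, 94.9 and 80.4 FPKM in S34F and 136.5, 139.9 and 104.6 FPKM in WT, without overlap. The log2 fold change was -0.47 (SE 0.15, limma p = 0.0167, adjusted p = 1.00, exact permutation p = 0.1). Leaving out WT replicate 3 gave -0.60 (limma adjusted p = 0.9997), a call by fold and p that 0.804% of all genes shared. Without WT replicate 1 or WT replicate 2 its log2 fold change was -0.41 or -0.39, no longer at an unadjusted p under 0.05. Of the 11 target genes tested, 5 were positive and 6 negative, with a median of -0.0017. TFRC, the transferrin receptor, measured 75.3 to 81.2 FPKM in S34F and 54.8 to 92.5 FPKM in WT, the gene at that median. PIM2, a related survival kinase, measured 55.3 to 64.3 FPKM in S34F and 60.0 to 72.2 FPKM in WT (log2 fold change -0.16, exact permutation p = 0.3). Apart from PIM1, none of the 11 had an unadjusted p under 0.05.

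STAT6, the factor that the interleukin 4 receptor activates, measured 7.64, 6.77 and 6.88 FPKM in S34F and 8.99, 8.80 and 8.99 FPKM in WT. The groups lay apart and each was tight. Its log2 fold change was -0.30 (SE 0.10, limma p = 0.0199, adjusted p = 1.00, exact permutation p = 0.1). Without WT replicate 1, WT replicate 2 or S34F replicate 2 it was -0.29, -0.30 or -0.27, no longer at an unadjusted p under 0.05. Of the 5 other JAK and STAT genes tested, 1 was positive and 4 negative, with a median of -0.16. TYK2 measured 9.19 to 9.51 FPKM in S34F and 10.3 to 10.9 FPKM in WT, also without overlap (log2 fold change -0.16, exact permutation p = 0.1), and STAT3 measured 15.1 to 19.6 and 17.7 to 19.1 FPKM (-0.08, exact permutation p = 0.7).

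TFR2, transferrin receptor 2, which senses iron and associates with the erythropoietin receptor, was listed with the cytokine receptors although it is not one. It measured 12.7, 11.7 and 9.30 FPKM in S34F and 14.2, 17.3 and 13.2 FPKM in WT, without overlap. Its log2 fold change was -0.38 (SE 0.15, limma p = 0.0446, adjusted p = 1.00, exact permutation p = 0.1), and it had no unadjusted p under 0.05 without S34F replicate 2 (-0.41), S34F replicate 3 (-0.26), WT replicate 1 (-0.41) or WT replicate 2 (-0.27). Among the 14 receptors listed, 6 were tested, 3 positive and 3 negative, with a median of -0.0011. IL13RA1, which pairs with IL4R, measured 3.60 to 4.26 FPKM in S34F and 3.73 to 4.08 FPKM in WT (log2 fold change 0.03), and IL2RG, its other partner, measured 2.24 to 4.87 FPKM and 4.14 to 4.38 FPKM (-0.25, exact permutation p = 0.4). KIT, CSF2RA, CSF2RB, CSF3R, IL3RA, GHR and PRLR, the receptors for stem cell factor and other growth factors, stayed at or under 0.213 FPKM in each library. EPOR was thus more abundant than CSF3R, GHR and PRLR, which also pair with themselves.

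The ligands were near the floor, with EPO at 0 to 0.0728 FPKM and the highest, OSM, at 0.105 to 0.252 FPKM, followed by THPO and IL3. Of the other SOCS genes, SOCS7 measured 2.04 to 3.18 FPKM in S34F and 1.98 to 2.23 FPKM in WT (log2 fold change 0.13, exact permutation p = 0.6), and SOCS6 and SOCS5 had means of 0.947 and 0.918 FPKM, below the filter. In the list named negative regulators, 8 genes were tested, 4 positive and 4 negative, with a median of 0.02. That name was set beforehand from textbook knowledge, and whether each gene damps or passes on the signal in these cells was not tested. PTPN1, a phosphatase that acts on JAK2, measured 25.1 to 26.4 FPKM in S34F and 25.5 to 28.0 FPKM in WT (log2 fold change -0.07). PIAS4 and PTPN11, the next most abundant, had log2 fold changes of 0.05 and 0.11, and none of the 8 tested had an unadjusted limma p under 0.05. PTPN6, below the filter, measured 0.227 to 0.419 FPKM in S34F and 0.536 to 0.550 FPKM in WT, without overlap (exact permutation p = 0.1). THPO and GAB1, also below the filter, did not overlap either and were higher in S34F (exact permutation p = 0.1 each). The shares of all genes without overlap given above cover tested genes only.

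Among the adaptors, which link phosphorylated receptors to the RAS and PI3 kinase pathways, 9 were tested, 3 positive and 6 negative, with a median of -0.03. CRKL was the most abundant, at 85.4 to 122.2 FPKM in S34F and 86.2 to 92.6 FPKM in WT (log2 fold change 0.13), and SHC1 had a log2 fold change of -0.03. GRB2, which brings the RAS activator SOS1 to the receptor, measured 15.3, 22.4 and 19.98 FPKM in S34F and 23.6, 24.4 and 52.2 FPKM in WT. The groups did not overlap, and WT replicate 3 stood far above the rest. For GRB2 the log2 fold change was -0.68 (SE 0.31, limma p = 0.0672, exact permutation p = 0.1), and it was -0.32 without WT replicate 3. In the fit blocked on replicate number, its unadjusted limma p was under 0.05 (adjusted p = 0.994), so that GRB2 alone of the 40 genes met the fold and p limits, against 0.795% of all genes in that fit. With the block and median-ratio scaling together GRB2 was not called (-0.69, limma adjusted p = 0.982).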

How the data were processed

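Total RNA of 6 samples labelled SKM-1 was sequenced on an Illumina instrument, and the authors deposited 1 table of FPKM for 31142 genes. The table is named for counts, yet 100% of its values above 0 carry decimals, so it was read as FPKM, as its column headings say. StringTie and edgeR stand in the submitters' processing notes without version or role, and the aligner and genome build are not given in the sources used here. Fold changes, p-values and q-values of the authors' own comparison are also in the table and were left out.

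Group labels followed the form of U2AF1 that titles and genotypes give. Positions, transcript lengths and coding sequences were taken from GENCODE 29 (GRCh38), in which 31002 identifiers were found, and promoter windows from RefSeq (GRCh38.p14). Depth and fragments per kilobase are approximate. They were read from the most frequent value of FPKM times length, within a preset range, in 7995 genes of 1 exon and 1 transcript. The precision they give covers counting error only.

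Genes averaging 1 FPKM or more (10942) entered limma 3.58.1 under R 4.3.3 on log2(FPKM + 1), with a variance trend in the empirical Bayes step. Fold changes on this scale understate those of low genes. Calls used a fold above 1.5 and an unadjusted p under 0.05, and Benjamini-Hochberg adjustment covered all genes tested. Members under the filter, ratios and shares were tested by two-sided exact permutation over the 6 libraries. On simulated data for this comparison (10942 genes, 200 of them changed 2-fold), 188 of the 200 passed the unadjusted and 123 the adjusted limit, as did 5.46% of unchanged genes for the unadjusted one.

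Same-numbered libraries deviated together from their group means (r across genes 0.212, 0.174 and 0.380, all above 0.1), so the numbers were taken as pairs and a replicate block was fitted as an alternative. S34F replicate 2 with WT replicate 1 (0.197) and S34F replicate 1 with WT replicate 2 (0.134) also deviated together, which leaves the pairing of these 4 libraries uncertain.

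Named were all members, the pathway genes at an unadjusted p under 0.05, the 3 most abundant genes of each list, and the 2 genes most correlated with each member. GRB2's values by library, and genes named for absence or for a lack of overlap, were added after their values were seen. The members and lists were chosen with earlier results of these data known. The alternatives were other filters, pseudocounts, scalings and variance models, the block, and each library left out. Scripts ran on Python 3.11.15 with scipy 1.17.1, numpy 2.4.6, matplotlib 3.10.9 and pandas 2.3.3.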

Additional observations from a re-analysis of the deposited data

How the results depend on the processing

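Genes called by fold and p numbered 64, then 22 under a filter at a mean of 5 FPKM, 122 with a pseudocount of 0.1 and 122 with 0.01, 183 without both replicates numbered 3, and 536 with no filter and pseudocount 0.1, a setting chosen after seeing the data. With 1 library left out they numbered 66 to 180, highest without S34F replicate 3. Genes at an adjusted p under 0.05 numbered 0, with 0 to 3 when 1 library was left out and 8 without both replicates numbered 3. Members called numbered 0, with 0 to 1 when 1 library was left out (STAT5A without S34F replicate 1, SOCS1 without WT replicate 3) and 1 without both replicates numbered 3 (SOCS1). Pathway genes called numbered 0, with 0 to 1 when 1 library was left out (GRB2 without WT replicate 1 or 2, PIM1 without WT replicate 3) and 1 with the replicate block (GRB2). Pathway genes at an unadjusted limma p under 0.05 numbered 3, with 1 to 4 when 1 library was left out. They numbered 8 without both replicates numbered 3, where 1846 of all genes passed. Without the filter they numbered 4, with PTPN6 added (-0.22, limma adjusted p = 0.999), where 904 of all genes passed. The block raised the genes at an unadjusted p under 0.05 from 262 to 443 and changed no member's call. CISH passed an unadjusted limma p of 0.05 with quantile normalization (-0.27) and with the block and median-ratio scaling together (-0.25). In these fits 276 of 10942 and 470 of 10921 genes passed that limit in either direction, and 0 genes had an adjusted p under 0.05. Signs turned for EPOR (-0.019 without S34F replicate 2; -0.019 to 0.077 with 1 library left out), JAK1 (-0.0045 without S34F replicate 3; -0.0045 to 0.24), JAK2 (-0.047 without WT replicate 3; -0.047 to 0.20) and STAT5B (0.15 without S34F replicate 3; -0.21 to 0.15), and without both replicates numbered 3 for JAK1 (-0.064) and STAT5B (0.053). The log2 ratio of JAK2 to JAK1 differed by -0.18 to 0.31 with 1 library left out (-0.15 without S34F replicate 1, -0.09 without S34F replicate 2), and that of STAT5A to STAT5B by -0.48 to -0.11. The cause was not tested for any of these. CISH, SOCS1, SOCS2 and STAT5A stayed negative, and IL4R and SOCS3 positive, under each alternative run. FPKM carry no counts, so the precision of low genes such as IL4R, SOCS3 and JAK2 is known only approximately.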
